A study of Mus musculus with 16 samples.

Results

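Among the genes listed for mouse kidneys homozygous for the Kl mutation and for control kidneys, 8 pseudogene and noncoding genes are described here. They are Gm45315, Gm5454, Gm6520, Gm16199, Gm6300, Rpl13a-ps1, 9030619P08Rik and 5930430L01Rik, 8 of the 30277 genes listed in each of 2 tables. They were picked by name for their change in Kl/Kl kidneys in these same libraries, so their levels and differences between genotypes are given as a description, with no test. The files annotate 5 of them as processed pseudogenes, 9030619P08Rik as a transcribed unprocessed pseudogene, Gm6300 as an unprocessed pseudogene and 5930430L01Rik as a long noncoding RNA (lncRNA).

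The libraries were made from polyadenylated kidney RNA of mice of the 129S1/SvlmJ strain, into which the recessive Kl mutation had been backcrossed. The groups were 5 male Kl/Kl kidneys of 44 to 47 days, 3 male control kidneys of 45 to 46 days, 4 female Kl/Kl kidneys of 45 to 54 days and 4 female control kidneys of 45 to 49 days. Kl/Kl mice had renal disease and controls had healthy renal function, per the labels. All male controls were heterozygous (+/Kl) and all female controls were wild type (+/+). Control genotype therefore cannot be told apart from sex, nor sex from the table, because males and females were deposited and scaled separately. The labels do not say that replicates were separate animals, so spreads and p-values measure the variation between these libraries.

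A processed pseudogene is a copy of a messenger RNA that was reverse transcribed and inserted elsewhere in the genome. It has no introns and often no promoter of its own. An unprocessed pseudogene arises when a stretch of the chromosome is duplicated, so it can keep the introns and the neighbourhood of its parent. Because short reads from a parent gene can match its pseudogenes, a level assigned to a pseudogene depends on how reads that match several places were counted, and that step is not given in the sources used here. Kl encodes Klotho, the co-receptor for the hormone FGF23 in kidney tubules, through which phosphate excretion and vitamin D synthesis are controlled.

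Levels are TPM, a measure of RNA scaled by gene length and library size. The length divided by was the genomic span of a gene, introns included, since TPM times span came out as whole reads for 75.3% to 77.3% of low genes. Each level was also turned back into an estimated number of reads, and libraries held an estimated 21.6 to 31.8 M reads in all. The lowest values stand at about 0.0001 read, which is the floor of the tables. Kl itself averaged 0.112 ± 0.108 TPM in male Kl/Kl kidneys and 10.2 ± 5.56 TPM in male controls, and 0.239 ± 0.224 TPM in female Kl/Kl kidneys and 15.7 ± 5.22 TPM in female controls (SD, n = 5, 3, 4 and 4). A pair of libraries stood apart from the rest of their table. In female Kl/Kl replicate 3 6 kidney markers (Umod, Slc34a1, Lrp2, Slc12a1, Slc12a3 and Aqp2) summed to 2.45 TPM, against at least 269.9 TPM in every other library, while 4 heart markers summed to 1774 TPM and 3 airway markers to 973 TPM. In male control replicate 3 the kidney markers summed to 269.9 TPM, against 547 TPM or more in the other male libraries. Results are given with these libraries and, where a value moves, without them.

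Every male Kl/Kl kidney lay below every male control for 4 of the 8 genes and above for 1. Over all 8439 genes tested in males, 4.4% lay wholly below and 19.1% wholly above. In females the count was 3 below and 4 above, where 3.54% and 4.79% of the 8596 genes tested did so. Since the genes were picked on this contrast, nothing is read from these shares. All 8 genes passed the filter of a mean of at least 1 TPM in males, and 7 did in females, where Gm6300 did not. In both sexes Gm45315, Gm5454 and 9030619P08Rik were lower and 5930430L01Rik higher in Kl/Kl kidneys. Gm6300 was low in male Kl/Kl kidneys and in both female groups. Gm6520, Gm16199 and Rpl13a-ps1 were higher in every female Kl/Kl kidney than in any female control, and overlapped in males. These counts were the same when the libraries that stood apart were left out.

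**Figure D1:**
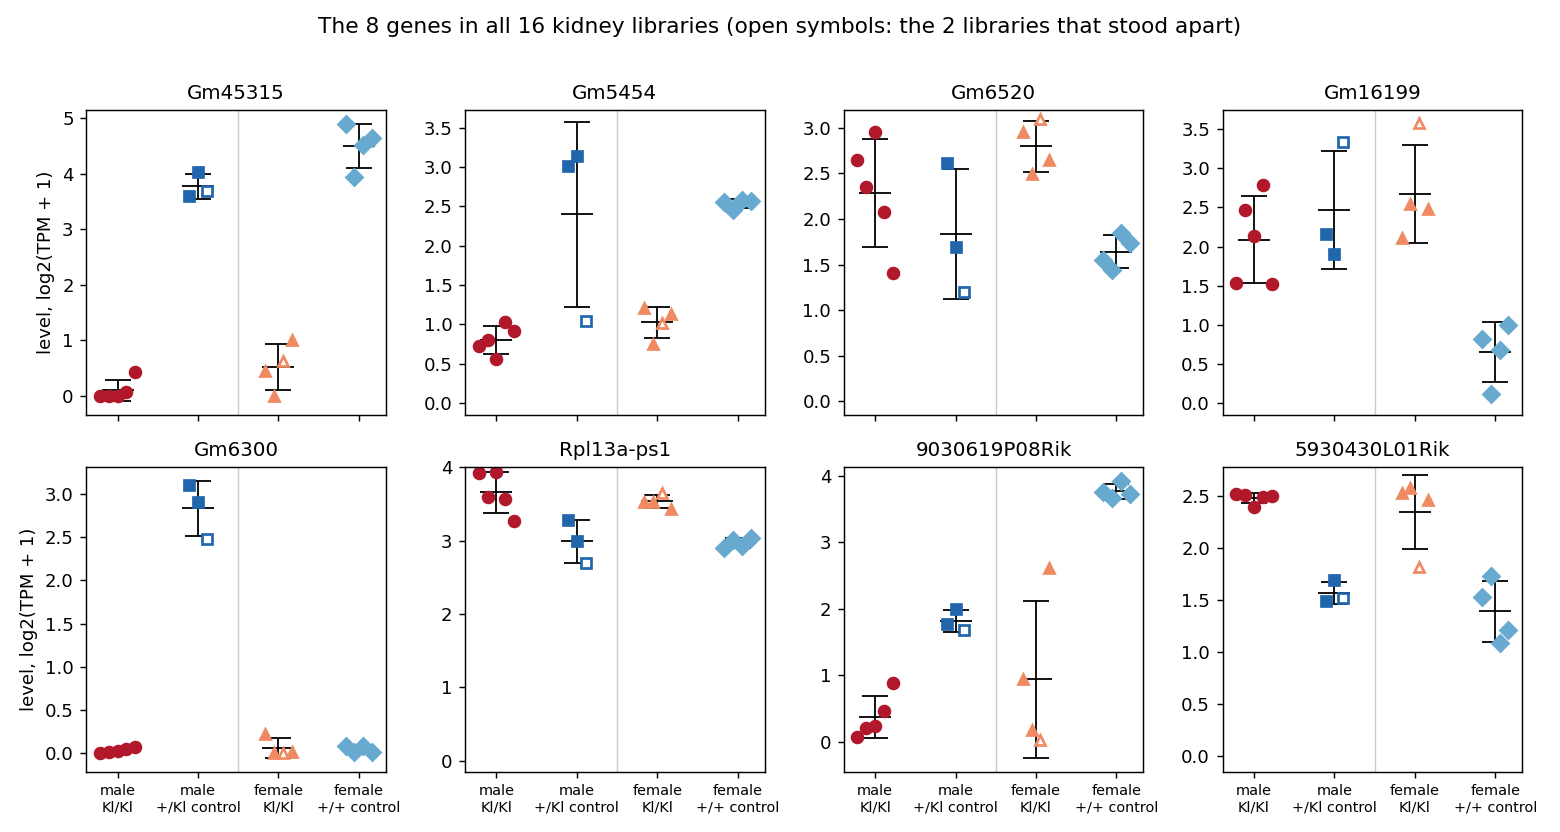
Each panel plots 1 gene, with the level as log2(TPM + 1) on the vertical axis and the groups along the horizontal axis. Points are single libraries, bars are the mean and SD, and open symbols mark male control replicate 3 and female Kl/Kl replicate 3. Gm45315 lies near 0 in Kl/Kl libraries of both sexes, Gm6300 is near 0 outside the male controls, and Gm16199 is lowest in the female +/+ controls.

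Gm45315 had the lowest Kl/Kl mean relative to the control mean of the 8 genes in females, and the lowest after Gm6300 in males. It is a processed pseudogene on chromosome 7 (mm39 chr7:12531456-12531788, plus strand, 333 bases) with no intron. The gene it resembles most is Hmgb1, which encodes a chromatin protein of high abundance. Its transcript matched the coding sequence of Hmgb1 at 98.8% over 332 of its 333 bases. The mismatches were T264G, A300C, C309T and A324T, written as the parent base, the position from 1 at the 5′ end of the pseudogene transcript and the pseudogene base. The longest identical run was 263 bases. A read from the first 263 bases therefore cannot be told apart from an Hmgb1 read. The last 120 aligned bases, from the part of Hmgb1 that encodes its acidic tail, are shown because they hold all 4 mismatches, in capitals here and below. These and the following sequences come from GENCODE M21 transcripts of the GRCm38 reference strain, so bases particular to the 129 strain were not analysed here.
Gm45315: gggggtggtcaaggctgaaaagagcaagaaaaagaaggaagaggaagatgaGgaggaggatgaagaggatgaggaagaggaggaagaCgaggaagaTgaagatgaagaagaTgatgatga
Hmgb1: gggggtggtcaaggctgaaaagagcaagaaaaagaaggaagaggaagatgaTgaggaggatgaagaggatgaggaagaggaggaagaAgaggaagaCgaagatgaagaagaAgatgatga

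In male Kl/Kl kidneys Gm45315 stood at 0.00018, 1.05e-05, 1.02e-05, 0.0525 and 0.346 TPM, against 11.1, 15.2 and 11.9 TPM in male controls. Female Kl/Kl kidneys had 0.374, 1.48e-05, 0.556 and 1.00 TPM, against 28.7, 14.4, 21.8 and 24.0 TPM in female controls. The groups are far apart in both sexes, and the highest Kl/Kl library of each sex lay far below the lowest control. In estimated reads, no male Kl/Kl library passed 3.52 and no female one passed 8.27, against 97.0 to 143 in male controls and 130 to 264 in female controls. Mean TPM in Kl/Kl kidneys was 0.626% of the control mean in males and 2.18% in females. On the log2(TPM + 1) scale the difference was -3.67 in males and -3.97 in females. The +/Kl controls averaged 12.8 ± 2.19 TPM (n = 3) and the +/+ controls 22.2 ± 5.94 TPM (n = 4), but these come from different tables and different sexes.

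The parent gene was not lower in Kl/Kl kidneys. Hmgb1 averaged 0.658 ± 0.0685 TPM in male Kl/Kl kidneys and 0.599 ± 0.0331 TPM in male controls, and 0.705 ± 0.046 TPM in female Kl/Kl kidneys and 0.56 ± 0.0786 TPM in female controls. With no filter on low values, which Hmgb1 did not pass, its limma adjusted p was 0.651 in males and 0.827 in females. In reads, Gm45315 amounted to at most 0.134% of Hmgb1 in male Kl/Kl kidneys and 4.59% to 5.79% in male controls. In females it amounted to at most 0.382% of Hmgb1 in Kl/Kl kidneys and 5.53% to 12.0% in controls. The tables list 85 same-strand sequences that cover at least 80% of Gm45315 at 70% identity or more, most of them Hmgb1 pseudogenes. Of these, 9 could be tested in each sex. None passed an adjusted p of 0.05 by limma, where 5.92% of all genes did in males and 0.0349% in females, while 1 in males and 0 in females had an unadjusted p under 0.05. Among copies too low for the filter, Gm11645 and Gm50144 were lower in Kl/Kl kidneys of both sexes with no overlap, and Hmgb1-ps4 was higher. Gm11645 averaged 0.0445 TPM in male Kl/Kl kidneys and 0.69 TPM in male controls. In females it averaged 0.0261 TPM in Kl/Kl kidneys and 1.00 TPM in controls. With no filter its limma adjusted p was 0.0401 in males and 0.54 in females. Gm21596 on chromosome 2 and Gm15387 on chromosome 15, which share the 263-base run, averaged 26.8 and 15.0 TPM in male Kl/Kl kidneys, against 14.6 and 11.2 TPM in male controls. The male groups overlapped for Gm15387. Without male control replicate 3 the male log2(TPM + 1) changes were 0.66 and 0.05, against 0.88 and 0.52 with it. In females Gm21596 and Gm15387 averaged 25.6 and 10.8 TPM in Kl/Kl kidneys, against 17.2 and 10.6 TPM in controls, and both overlapped. The female change of Gm15387 was -0.33, and 0.46 without female Kl/Kl replicate 3. All these copies together with Gm45315 held an estimated 5174 to 6579 reads in male Kl/Kl kidneys and 4833 to 6116 in male controls. In females they held 4360 to 7412 reads in Kl/Kl kidneys and 4553 to 6173 in controls.

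Around Gm45315 the tables list 19 other genes within 200 kb, of which 6 reached a mean of 1 TPM in a table. The overlapping genes lie on the opposite strand and were low. Zscan18, a zinc finger gene, averaged 0.0409 TPM in male Kl/Kl kidneys and 0.0248 TPM in male controls, and Gm18194, a transcribed pseudogene, 0.144 TPM and 0.0742 TPM. The nearest gene with a mean of 1 TPM, Zfp329, lies 7116 bases away and had 1.13 TPM in male Kl/Kl kidneys and 0.932 TPM in male controls. Its level was 1.39 TPM in female Kl/Kl kidneys and 1.41 TPM in female controls, with limma adjusted p of 0.459 in males and 0.925 in females. On the other side Gm15773, at 192886 bases, averaged 1.73 TPM in female Kl/Kl kidneys and 1.36 TPM in female controls, with an adjusted p of 0.745 by limma. The low level of Gm45315 in Kl/Kl kidneys was thus not seen in the genes on either side.

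Across 15 libraries, leaving out female Kl/Kl replicate 3, the gene most like Gm45315 among 8144 was Kl itself. Pearson r of log2(TPM + 1), after removing each table's mean, was 0.98 with Kl, 0.95 with the organic anion transporter Slc22a19, 0.94 with the lipid transporter Mfsd2a and -0.67 with Hmgb1. These r values, and those given below for the other genes, span the genotype groups, on which Gm45315 and the other genes described here were picked. Gm45315 lies on chromosome 7 and Kl on chromosome 5. Within the Kl/Kl groups Kl was highest in male replicate 5, at 0.265 TPM, and in female replicate 4, at 0.518 TPM, and these were also the libraries with the highest Gm45315. There Gm45315 rested on 3.52 and 8.27 estimated reads. Female Kl/Kl replicate 3 had the lowest Kl of its group, at 0.0268 TPM, with Gm45315 at 0.556 TPM. In male controls Kl was highest in replicate 1, at 15.1 TPM, where Gm45315 was lowest, at 11.1 TPM. In female controls both were highest in replicate 1 and lowest in replicate 2.

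Gm5454 is a processed pseudogene on chromosome 13 (chr13:103492760-103494212, plus strand, 1453 bases) and resembles Etv1, which encodes an ETS family transcription factor. The match was 98.2% over all 1453 bases, with 5 mismatches, 21 gap bases and an identical run of 626 bases. A window of 120 bases without gaps is shown because it holds 2 of the 5 mismatches, C1002T and A1010T. The other mismatches and the gaps lie outside it.
Gm5454: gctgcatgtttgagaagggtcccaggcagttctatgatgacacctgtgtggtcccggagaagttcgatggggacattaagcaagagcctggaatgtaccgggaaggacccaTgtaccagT
Etv1: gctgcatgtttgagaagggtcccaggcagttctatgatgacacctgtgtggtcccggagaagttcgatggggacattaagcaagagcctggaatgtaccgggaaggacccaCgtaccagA

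Gm5454 stood at 0.649, 0.738, 0.468, 1.03 and 0.89 TPM in male Kl/Kl kidneys, against 7.06, 7.83 and 1.06 TPM in male controls. Among females it stood at 1.31, 0.683, 1.02 and 1.19 TPM in Kl/Kl kidneys, against 4.89, 4.46, 4.98 and 4.92 TPM in female controls. The female groups are well apart. The male groups are apart by a narrow margin, because male control replicate 3, the library with fewer kidney markers, lay just above the highest Kl/Kl library. Without it the male control mean was 7.45 TPM, against 5.32 TPM with it, and the log2(TPM + 1) difference was -2.27, against -1.59.

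Here the parent was lower in Kl/Kl kidneys too. Etv1 averaged 0.0395 ± 0.0181 TPM in male Kl/Kl kidneys and 0.388 ± 0.131 TPM in male controls, and 0.0825 ± 0.0291 TPM in female Kl/Kl kidneys and 0.263 ± 0.0191 TPM in female controls. The genotype groups did not overlap in either sex. Etv1 was too low for the filter. With no filter its log2(TPM + 1) change was -0.41 in males with a limma adjusted p of 0.0202, and -0.22 in females with a limma adjusted p of 0.112. In reads Gm5454 amounted to 20.3% to 47.5% of Etv1 in male Kl/Kl kidneys and 6.69% to 28.2% in male controls. In females it was 13.5% to 29.2% of Etv1 in Kl/Kl kidneys and 28.3% to 30.3% in controls. The lowest share in males, 6.69%, was again in male control replicate 3. The genes most like Gm5454 were Prok1, which encodes prokineticin 1 (r = 0.96), the growth hormone receptor gene Ghr (0.94) and Kl (0.93), beside 0.94 for Etv1. None of the 3 neighbours of Gm5454 within 200 kb reached a mean of 1 TPM.

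**Figure D2:**
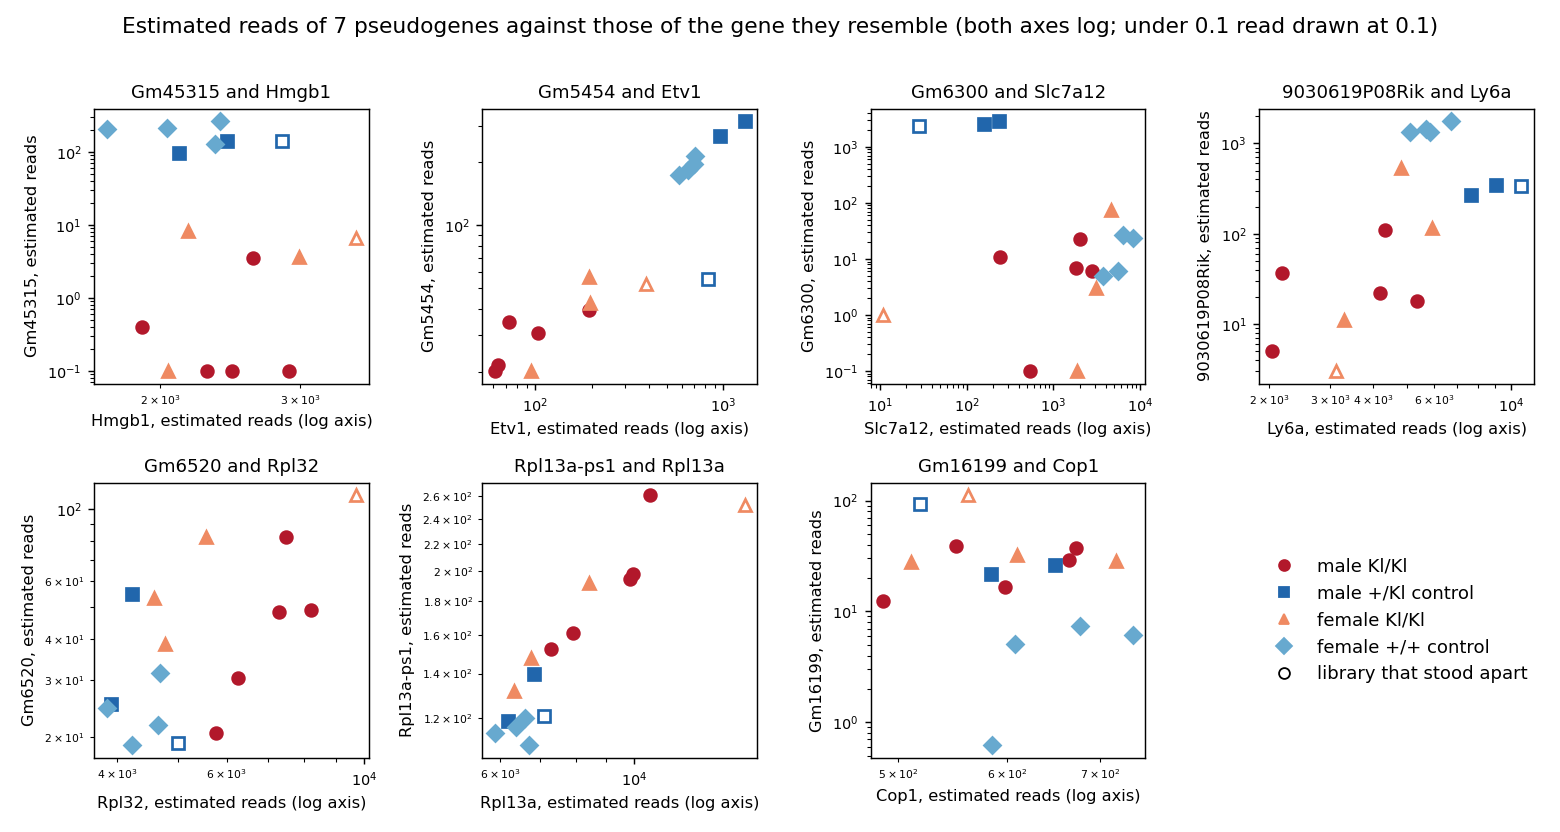
Each panel plots the estimated reads of 1 pseudogene (vertical, log axis) against those of the gene it resembles (horizontal, log axis), with 1 point per library and open symbols for the libraries that stood apart. Values under 0.1 read are drawn at 0.1. Gm5454 and Rpl13a-ps1 run with their parents, Gm45315 separates the genotypes in both sexes and Gm6300 in males, and Gm16199 is lowest in the female +/+ controls, with Cop1 overlapping between the groups.

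Gm6300 is an unprocessed pseudogene on chromosome 3 (chr3:14428177-14442647, plus strand), spread over 14471 bases. It lies 103110 bases before Slc7a12, an amino acid transporter gene on the same strand, and this is also the gene it resembles most. The transcripts have 75.7% identity over 1391 of 1498 transcript bases and 325 mismatches, and the longest identical run is 47 bases. A window of 120 bases inside the Slc7a12 coding sequence is printed because it shows how many positions, here 38, tell the transcripts apart.
Gm6300: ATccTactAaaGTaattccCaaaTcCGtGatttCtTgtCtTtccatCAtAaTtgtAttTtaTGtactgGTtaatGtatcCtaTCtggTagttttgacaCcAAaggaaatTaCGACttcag
Slc7a12: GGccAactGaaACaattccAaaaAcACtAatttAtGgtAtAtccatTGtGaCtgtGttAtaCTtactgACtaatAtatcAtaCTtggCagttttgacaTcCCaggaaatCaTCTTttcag

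The level of Gm6300 was 3.05e-07, 0.0145, 0.0164, 0.0332 and 0.0523 TPM in male Kl/Kl kidneys, against 7.62, 6.51 and 4.60 TPM in male controls. Among females it was 0.173, 3.4e-07, 0.00196 and 0.00841 TPM in Kl/Kl kidneys, against 0.0602, 0.0154, 0.0634 and 0.0135 TPM in female controls. Gm6300 was thus a gene of the male control kidneys in these libraries, with 2391 to 2887 estimated reads there and at most 74.2 in any other library. Male Kl/Kl kidneys held 0.373% of the male control mean. The female groups overlapped.

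Slc7a12 ran the other way in males. It averaged 2.05 ± 1.38 TPM in male Kl/Kl kidneys and 0.207 ± 0.166 TPM in male controls, a log2(TPM + 1) change of 1.21 with a limma adjusted p of 0.0577, although the groups did not overlap. In females it averaged 3.68 ± 2.65 TPM in Kl/Kl kidneys and 8.62 ± 2.49 TPM in controls, with a limma adjusted p of 0.745. Without female Kl/Kl replicate 3, where it was 0.0124 TPM, the female adjusted p was 0.16 by limma. The difference between the female and the male change was -2.53 ± 0.734 (SE) on the log2 scale, with a limma adjusted p of 0.458, and -1.79 ± 0.521 without the libraries that stood apart, with an adjusted p of 0.0745 by limma. Of the reads of the pair, Gm6300 held at most 4.3% in male Kl/Kl kidneys and 92.4% to 98.8% in male controls. In females the share was at most 8.33% in Kl/Kl kidneys and at most 0.422% in controls.

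The genes most like Gm6300 were Acsm3, a medium-chain acyl-CoA synthetase gene (r = 0.995), Nhp2, which encodes a protein of small nucleolar ribonucleoproteins (0.98), and the cytochrome b5 gene Cyb5a (0.97). Gm6300 was picked on the genotype groups that these r values span, so nothing is read from their size. Acsm3 ranged over 0.127 to 0.646 TPM in male Kl/Kl kidneys and 16.3 to 36.6 TPM in male controls, and its range was 0.125 to 6.03 TPM in female Kl/Kl kidneys and 0.049 to 0.284 TPM in female controls. The highest of these female Kl/Kl values was in replicate 3, and without it none passed 0.764 TPM. Apart from Slc7a12, none of the 7 neighbours of Gm6300 reached a mean of 1 TPM. The closest, the pseudogene Gm37358 at 6335 bases on the opposite strand, stood at the floor in every Kl/Kl library and reached 0.16 TPM in male controls and 0.426 TPM in female controls. Gm37358 averaged 0.0533 ± 0.0923 TPM in male controls, where the lowest value was also at the floor. The male groups overlapped and the female groups did not. It did not pass the filter, and with no filter its limma adjusted p was 0.432 in males and 0.827 in females.

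9030619P08Rik lies on chromosome 15 (chr15:75299455-75303678, minus strand) in a cluster of Ly6 genes, which encode small cell surface proteins held by a lipid anchor. Among coding genes in the tables its transcript was most like Ly6a, the gene for the surface antigen Sca-1, with 77.3% identity over 856 of 857 bases and no identical run longer than 31 bases. In male Kl/Kl kidneys it stood at 0.0522, 0.149, 0.177, 0.382 and 0.848 TPM, against 2.43, 2.99 and 2.20 TPM in male controls. The 4 female Kl/Kl kidneys had 0.929, 0.128, 0.0201 and 5.10 TPM, against 12.5, 11.7, 14.2 and 12.2 TPM in female controls. Neither sex overlapped, and female Kl/Kl replicate 4 was the one Kl/Kl library above 1 TPM. The Kl/Kl mean was 12.7% of the control mean in males and 12.2% in females. Without female Kl/Kl replicate 3 the female Kl/Kl mean was 2.05 TPM, against 1.54 TPM with it and 12.7 TPM in female controls. The female log2(TPM + 1) difference was then -2.53, against -2.83 with it. Female controls had 4.99 times the mean of male controls, each in its own table.

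Ly6a was lower in male Kl/Kl kidneys as well, at 41.6 ± 12.7 TPM, against 96.9 ± 6.02 TPM in male controls. Its log2(TPM + 1) change was -1.25 ± 0.257 (SE), with a limma adjusted p of 0.0201. It missed the threshold without male control replicate 1 (adjusted p = 0.0503 by limma) or replicate 2 (adjusted p = 0.0771). In females Ly6a averaged 51.1 ± 16.2 TPM in Kl/Kl kidneys and 67.2 ± 4.04 TPM in controls, with an adjusted p of 0.745 by limma. The female log2(TPM + 1) change of -0.45 was -0.20 without female Kl/Kl replicate 3, where Ly6a was 28.0 TPM (adjusted p of 0.304 by limma). 9030619P08Rik amounted to 0.246% to 2.53% of Ly6a reads in male Kl/Kl kidneys and 3.12% to 3.86% in male controls. In females it was 0.0959% to 11.1% of Ly6a in Kl/Kl kidneys and 22.8% to 26.4% in controls.

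Ly6f, another Ly6 gene with 74.0% identity, lies 155371 bases away and was also low in Kl/Kl kidneys. It ranged up to 0.0948 TPM in male Kl/Kl kidneys and over 0.314 to 1.37 TPM in male controls, and up to 0.34 TPM in female Kl/Kl kidneys and over 0.95 to 2.18 TPM in female controls. It did not pass the filter. With no filter its limma adjusted p was 0.0869 in males and 0.28 in females. It is named after its values were seen. The other Ly6 copies were not lower on average in male Kl/Kl kidneys. Ly6c1, with 75.8% identity, averaged 14.9 TPM in male Kl/Kl kidneys and 8.85 TPM in male controls, which did not overlap, with a limma adjusted p of 0.0694. In females Ly6c1 averaged 15.1 TPM in Kl/Kl kidneys and 12.0 TPM in controls, with an adjusted p of 0.745 by limma. Ly6c2 and Ly6i were too low for the filter and overlapped in both sexes. Gpihbp1, a gene of capillary lipid handling and the nearest neighbour with a mean of 1 TPM, at 164799 bases, had 2.74 TPM in male Kl/Kl kidneys and 1.79 TPM in male controls, with an adjusted p of 0.325 by limma. In females Gpihbp1 averaged 5.11 TPM in Kl/Kl kidneys (1.91 TPM without replicate 3) and 1.28 TPM in controls, which did not overlap, with an adjusted p of 0.745 by limma. The genes most like 9030619P08Rik were Slc22a19 (r = 0.92), Gm45315 (0.91), which was picked on the same contrast, and the acyl-CoA synthetase gene Acsm1 (0.91).

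5930430L01Rik is the one gene of the 8 that was higher in Kl/Kl kidneys of both sexes with no overlap, and the one without a parent gene. It is a lncRNA on chromosome 5 (chr5:148926866-148932033, minus strand), and its best match to a coding transcript covered 186 of 3994 bases. It stood at 4.73, 4.72, 4.28, 4.65 and 4.67 TPM in male Kl/Kl kidneys, against 1.82, 2.23 and 1.87 TPM in male controls. In female Kl/Kl kidneys it stood at 4.77, 4.98, 2.53 and 4.51 TPM, against 1.90, 2.33, 1.13 and 1.33 TPM in female controls. The lowest female Kl/Kl value was in replicate 3, the library nearly without kidney markers. Mean TPM in Kl/Kl kidneys was 2.34 times the control mean in males and 2.51 times in females.

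The gene most like 5930430L01Rik was Cyp27b1, which encodes the enzyme of the kidney that makes active vitamin D (r = 0.93), followed by S100g, the gene of a vitamin D dependent calcium-binding protein (0.88), and the RNA-binding protein gene Hnrnpa1 (0.87). These r values span the genotype groups, on which 5930430L01Rik was picked, and a link to vitamin D was not tested. Cyp27b1 averaged 17.5 ± 4.05 TPM in male Kl/Kl kidneys and 1.32 ± 0.3 TPM in male controls, and 12.4 ± 8.37 TPM in female Kl/Kl kidneys and 1.96 ± 1.08 TPM in female controls. In female Kl/Kl replicate 3 Cyp27b1 was 0.0238 TPM, while 5930430L01Rik was still above every female control.

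5930430L01Rik lies 1.94 Mb from Kl on the same chromosome, and Hmgb1, its neighbour at 51479 bases, lies 1.75 Mb from Kl. Of the other 48 genes listed within 2 Mb of Kl, 4 could be tested in males and 5 in females. None passed by limma, where 5.92% of all genes did in males and 0.0349% in females. An unadjusted p under 0.05 was found for 2 in males and 0 in females, beside 26.9% and 4.82% of all genes. Without male control replicate 3, where 10.5% of all genes passed, 1 of 5 did. The heat shock gene Hsph1, 1.32 Mb from Kl, was then lower in male Kl/Kl kidneys, with a log2 change of -1.55 and a limma adjusted p of 0.0266. The lncRNA Gm15406 and Gm42791, which is annotated as protein coding, overlap 5930430L01Rik on the same strand. Gm15406 was low, at 0.0353 TPM in male Kl/Kl kidneys and 0.0163 TPM in male controls, which did not overlap. In females it averaged 0.0406 TPM in Kl/Kl kidneys and 0.016 TPM in controls, which overlapped. With no filter its limma adjusted p was 0.0983 in males and 0.827 in females. Gm42791 averaged at most 0.00276 TPM in any group. Beside them 1810059H22Rik, a lncRNA at 19934 bases, had 1.10 TPM in male Kl/Kl kidneys and 1.53 TPM in male controls, with an adjusted p of 0.232 by limma. The pseudogene Gm8615, at 159885 bases, had 9.97 TPM in male Kl/Kl kidneys and 15.2 TPM in male controls, with an adjusted p of 0.581 by limma, and its log2(TPM + 1) change of -0.42 was -1.07 without male control replicate 3 (adjusted p of 0.109 by limma). In females Gm8615 averaged 12.5 TPM in Kl/Kl kidneys (16.3 TPM without replicate 3) and 18.3 TPM in controls, with an adjusted p of 0.745 by limma. Whether the mutation's surroundings on chromosome 5 differ in sequence between the groups was not tested.

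**Figure D3:**
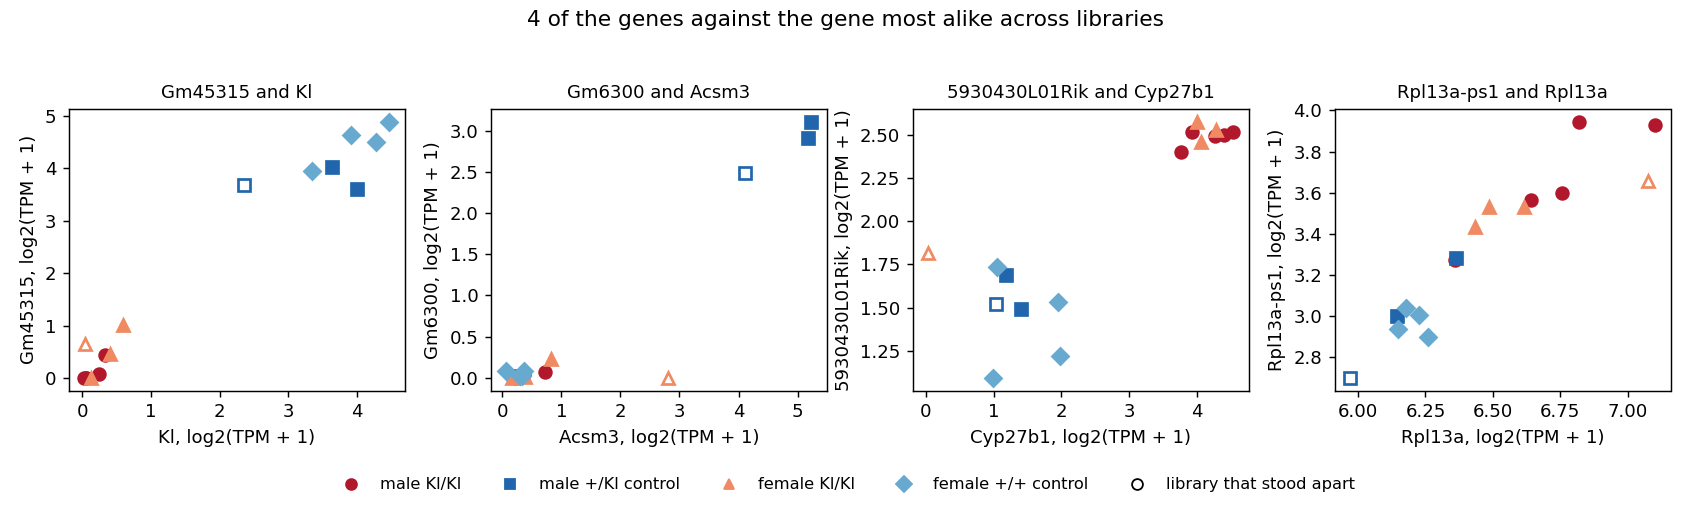
Each panel plots 1 gene (vertical) against the gene most like it across libraries (horizontal), both as log2(TPM + 1), with 1 point per library. Gm45315 and Kl are both low in Kl/Kl kidneys, Gm6300 and Acsm3 are both high in male controls, 5930430L01Rik and Cyp27b1 are both high in Kl/Kl kidneys except for Cyp27b1 in female Kl/Kl replicate 3, and Rpl13a-ps1 runs with Rpl13a.

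Gm16199 is a processed pseudogene of 288 bases on chromosome 6 (chr6:119982959-119983246, plus strand). It sits inside the span of Wnk1, a kinase gene of renal salt handling, on the strand opposite to it. Its sequence matches the last part of the coding sequence of Cop1, the gene of a ubiquitin ligase, at all 288 bases, and matches Gm6206, a Cop1 pseudogene on the X chromosome, equally well. The sequence is shown because no base in it tells these 3 genes apart.
Gm16199: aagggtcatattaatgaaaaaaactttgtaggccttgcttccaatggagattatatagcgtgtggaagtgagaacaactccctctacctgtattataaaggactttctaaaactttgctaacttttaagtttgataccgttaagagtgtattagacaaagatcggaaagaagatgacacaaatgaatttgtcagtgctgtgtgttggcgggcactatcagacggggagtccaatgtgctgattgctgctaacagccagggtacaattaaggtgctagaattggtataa

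In male Kl/Kl kidneys Gm16199 stood at 1.89, 4.51, 3.41, 5.89 and 1.88 TPM, against 3.49, 2.75 and 9.07 TPM in male controls. Values were 3.33, 4.81, 10.9 and 4.57 TPM in female Kl/Kl kidneys, against 0.768, 0.0797, 0.6 and 1.00 TPM in female controls. The male groups overlap and the female groups do not. The female controls, all +/+, held at most 7.42 estimated reads, against 12.4 or more in each of the other 12 libraries. Control genotype, sex and table cannot be told apart here, and a link to the Kl allele was not tested. The highest value of each table was in the library that stood apart, and without it the female Kl/Kl mean was 4.23 TPM, against 5.90 TPM with it. In males the log2(TPM + 1) difference was -0.38 with all libraries and 0.05 without male control replicate 3.

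The other genes that hold the sequence of Gm16199 overlapped between the female groups. Cop1 averaged 0.195 ± 0.0384 TPM in female Kl/Kl kidneys and 0.207 ± 0.0276 TPM in female controls, and with no filter its limma adjusted p was 0.688 in males and 0.896 in females. Gm6206 averaged 16.0 ± 5.30 TPM in female Kl/Kl kidneys and 18.9 ± 1.70 TPM in female controls, with an adjusted p of 0.745 by limma. Without female Kl/Kl replicate 3 the female Kl/Kl mean was 0.214 TPM for Cop1 and 18.6 TPM for Gm6206. In reads, Gm16199 amounted to 3.95% to 19.8% of Cop1 in female Kl/Kl kidneys and 0.106% to 1.09% in female controls. In males it was 2.54% to 7.08% of Cop1 in Kl/Kl kidneys and 3.76% to 18.1% in controls. Wnk1 averaged 3.91 TPM in female Kl/Kl kidneys (4.99 TPM without replicate 3) and 5.48 TPM in female controls, with an adjusted p of 0.745 by limma. In males it averaged 4.40 TPM in Kl/Kl kidneys and 2.96 TPM in controls, with an adjusted p of 0.182 by limma, and the log2(TPM + 1) change of 0.53 was 0.17 without male control replicate 3. No gene was close to Gm16199 across libraries, the highest r being 0.66 for Smim26, which encodes a small membrane protein.

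Rpl13a-ps1 and Gm6520 are processed pseudogenes of ribosomal protein genes, which leave many such copies because their messenger RNAs are abundant. Rpl13a-ps1 lies on chromosome 19 (chr19:50018563-50019174, minus strand) and matched Rpl13a at 95.3% over all 612 bases. Its 29 mismatches are spread out, so that no identical run exceeds 57 bases.

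Rpl13a-ps1 stood at 14.2, 11.1, 14.4, 10.8 and 8.65 TPM in male Kl/Kl kidneys, against 8.72, 6.99 and 5.49 TPM in male controls. The female Kl/Kl values were 10.6, 10.6, 11.6 and 9.79 TPM, against 6.45, 7.03, 6.65 and 7.22 TPM in female controls. The male groups overlap by 1 library on each side, and the female groups are apart. Rpl13a, the parent, averaged 107 ± 20.2 TPM in male Kl/Kl kidneys and 71.0 ± 9.91 TPM in male controls, with a limma adjusted p of 0.124. In females it averaged 101 ± 22.4 TPM in Kl/Kl kidneys and 72.7 ± 2.54 TPM in controls, with a limma adjusted p of 0.745. The ratio of pseudogene to parent reads was nearly the same everywhere, at 1.98% to 2.46% in male Kl/Kl kidneys, 1.70% to 2.04% in male controls, 1.66% to 2.28% in female Kl/Kl kidneys and 1.63% to 1.93% in female controls. Rpl13a was also the gene most like Rpl13a-ps1 (r = 0.95), followed by Rpl18 (0.94).

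Gm6520, on chromosome 3 (chr3:157594102-157594511, minus strand, 410 bases), matched Rpl32 at 94.9% over 409 bases with 17 mismatches. It stood at 5.26, 4.12, 6.77, 3.23 and 1.65 TPM in male Kl/Kl kidneys, against 5.12, 2.23 and 1.30 TPM in male controls. In female Kl/Kl kidneys it stood at 6.75, 4.63, 7.57 and 5.27 TPM, against 1.92, 1.71, 2.60 and 2.34 TPM in female controls. The female groups are apart and the male groups overlap over most of their range. Gm6520 amounted to 0.809% to 1.47% of Rpl32 reads in female Kl/Kl kidneys and 0.448% to 0.67% in female controls. In males the share was 0.357% to 1.10% in Kl/Kl kidneys and 0.383% to 1.30% in controls.

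Rpl32 averaged 81.9 ± 18.9 TPM in male Kl/Kl kidneys and 45.4 ± 3.76 TPM in male controls, with a limma adjusted p of 0.0557. In females it averaged 68.0 ± 13.0 TPM in Kl/Kl kidneys and 48.8 ± 2.46 TPM in controls, with an adjusted p of 0.745 by limma. Of the sequences like Gm6520, Rpl32 included, 6 could be tested in males and 1 passed by limma, where 5.92% of all genes did, with 5 at an unadjusted p under 0.05. In females 5 could be tested and 0 passed, with 2 at an unadjusted p under 0.05. The 1 that passed was Gm7266 on chromosome 1, at 40.5 ± 6.75 TPM in male Kl/Kl kidneys and 21.0 ± 0.903 TPM in male controls (limma adjusted p = 0.0251). In females Gm7266 averaged 31.6 TPM in Kl/Kl kidneys and 24.6 TPM in controls, which overlapped (limma adjusted p = 0.745). The gene most like Gm6520 was Rpl13a-ps1 (r = 0.86), which was picked on the same contrast, followed by the nuclear export gene Nxt1 (0.86). The nearest neighbour of Gm6520, Cth, a gene of cysteine synthesis at 5374 bases, averaged 5.45 TPM in male Kl/Kl kidneys and 6.02 TPM in male controls, with an adjusted p of 0.793 by limma. In females Cth averaged 4.45 TPM in Kl/Kl kidneys (5.88 TPM without replicate 3) and 7.21 TPM in controls, which did not overlap, with an adjusted p of 0.745 by limma.

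Genes named as ribosomal protein pseudogenes, Rpl13a-ps1 among them, were often higher in male Kl/Kl kidneys. This set was taken by name and not by annotation. Of 78 tested in males 20 rose and 0 fell by limma, or 25.6%, and 73 had an unadjusted p under 0.05. Without Rpl13a-ps1, which was picked on this contrast, 20 of 77 rose and 0 fell in males, with 72 at an unadjusted p under 0.05. In females 0 of 77 then passed, with 50 at an unadjusted p under 0.05. Of all 8439 genes 5.92% passed (316 higher and 184 lower), and 3.74% passed and were higher. Their median log2(TPM + 1) change was 0.72, and that of all genes tested was 0.19. Rpl9-ps4 averaged 89.5 TPM in male Kl/Kl kidneys and 39.5 TPM in male controls. Rps18-ps6, which is annotated as protein coding, averaged 171 TPM in male Kl/Kl kidneys and 80.3 TPM in male controls. Without male control replicate 3 the share was 15.4% and the median 0.63, and 10.5% of all genes passed. In females 0 of 78 passed by limma, where 0.0349% of all genes did (3 genes), while 51 had an unadjusted p under 0.05 and the median change was 0.46. Scaling by median of ratios moved the change of all genes by a median of -0.19 in males and 0.19 in females, so each of these values is read relative to such a shift. With that scaling 455 genes were higher and 698 lower in male Kl/Kl kidneys, and 17 of 78 ribosomal protein pseudogenes rose and 0 fell, with 40 at an unadjusted p under 0.05 and a median of 0.46. In females that scaling left 2 of 79 at an unadjusted p under 0.05, with a median of 0.74. Over all processed pseudogenes 6.29% passed in males, of lncRNAs 9.93% and of protein-coding genes 5.46%.

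**Figure D4:**
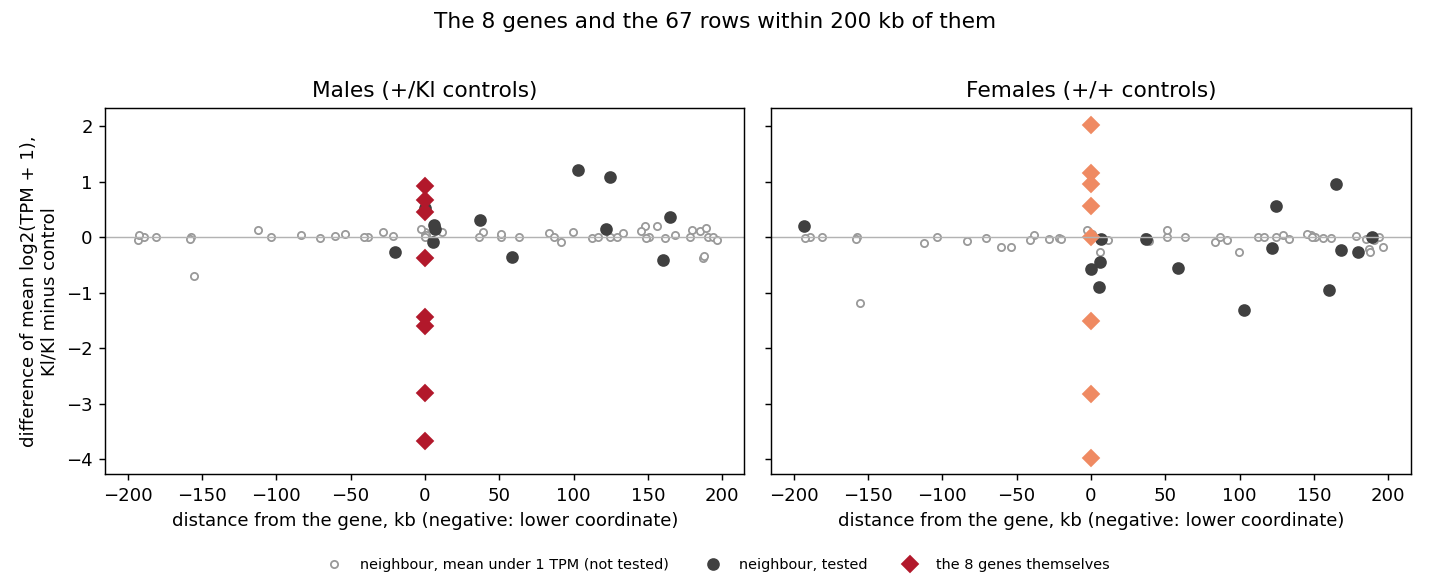
The horizontal axis gives the distance from each of the 8 genes to every other gene listed within 200 kb, and the vertical axis the difference of mean log2(TPM + 1), Kl/Kl minus control, in males (left) and females (right). Diamonds are the 8 genes, filled circles are neighbours with a mean of at least 1 TPM and open circles are lower neighbours. Neighbours lie between -1.32 and 1.21 across both sexes.

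Taking all 8 genes, 67 neighbours were listed within 200 kb. In males 12 of them could be tested, and 1 rose and 0 fell by limma, or 8.33%, with 3 at an unadjusted p under 0.05, where 26.9% of all genes had one. In females 15 could be tested and 0 passed by limma, with 1 at an unadjusted p under 0.05, where 4.82% of all genes had one. The median change of the neighbours was 0.18 in males and -0.23 in females, beside 0.19 and -0.16 for all genes tested. The male count was 0 without male Kl/Kl replicate 1, 2 or 3 or male control replicate 2. For the parents and neighbours, 17 genes could be tested for a difference of the change between the sexes, and 0 passed by limma, where 0.211% of all 8535 genes did, with 2 at an unadjusted p under 0.05.

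Among themselves the genes that were lower in Kl/Kl kidneys ran together across the 15 libraries, with r of 0.91 between Gm45315 and 9030619P08Rik and 0.87 between Gm45315 and Gm5454. 5930430L01Rik ran against Gm45315 (r = -0.96). Gm16199 had no r above 0.54 in size with any of the others, and Gm6300, high in male controls, had 0.67 with Gm45315. All were picked on the genotype contrast that these values span. Library names carry the prefix DK or FdK, which the labels do not explain. Computed within each prefix, the log2 difference between Kl/Kl and control had the same sign for 7 of the 8 genes in each sex. The exceptions were Gm6520 in males (1.45 in DK and -0.11 in FdK libraries) and Gm6300 in females (-0.02 in DK and 0.02 in FdK libraries). Each sex had 1 DK control library, and in males it was replicate 3, which stood apart. Female Kl/Kl kidneys also had 1 DK library. Since the genes were picked on this contrast, nothing is read from these signs.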

How the data were processed

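Levels are TPM as deposited by the authors in 2 tables, 1 for males and 1 for females, of 8 libraries and 30277 genes each. The submitters' processing notes name the genome build mm39 and the program Partek. How reads were aligned, counted where they match several places and assigned by strand is not given in the sources used here. RNA was polyadenylated and the library kit was a directional one, per the labels' protocols. The columns of a table share 1 total (285327 in males, 265288 in females). Stop coordinates lie 1 past the last base and were lowered by 1, and coordinates are those of mm39.

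Estimated reads are TPM times span, scaled so that the lowest values equal 0.0001 read. They came out whole, within 0.05, for 75.3% to 77.3% of low genes, so they are estimates and no counting interval is given.

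The 8 genes and the lists were chosen with earlier results of these data known. All other genes were tested within a sex with limma 3.58.1 in R 4.3.3 (lmFit, eBayes with trend) on log2(TPM + 1), leaving out genes whose mean was below 1 TPM, at a Benjamini-Hochberg adjusted p under 0.05. The log2(TPM + 1) scale understates changes of low genes. Differences between the sexes' changes came from a model of the 4 groups. The fit was tested on simulated data.

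Parents and copies came from BLAST 2.17.0 of GENCODE M21 transcripts (GRCm38, used for sequence only). A genome of build mm39 was not used here. The parent is the coding gene listed in the tables with the highest-scoring same-strand alignment. Copies cover at least 80% of the gene at 70% identity. Named neighbours are the nearest on each side with a mean of 1 TPM, those that overlap, and up to 4 past the threshold. The 3 most alike genes have the highest Pearson r over 15 libraries, among genes with a mean of 1 TPM in both tables. Genes named by other routes are Ly6f, Ly6c1, Ly6c2, Ly6i, Hsph1, Gm37358 and the copies Gm21596, Gm15387, Gm11645, Gm50144, Hmgb1-ps4, Gm6206 and Gm7266. These and the window of 2 Mb around Kl were chosen after values were seen. Alternatives were another pseudocount, no filter, median-of-ratios scaling, each library left out, the replicate number as a block, the library name prefix and the model of 4 groups. No pair of libraries was identical. A few genes and sequences are not reported here.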

Additional observations from a re-analysis of the deposited data

Results flagged for a closer look

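In groups of 4 or 5 libraries, a library was marked where its gap to the nearest other exceeded Dixon's 95% limit. Of 45 groups examined, for the 8 genes and 7 parents, 6 were marked, and chance marks about 1 in 20. Gm45315 was 0.346 TPM in male Kl/Kl replicate 5, against at most 0.0525 TPM in the other male Kl/Kl kidneys. Gm5454 was 4.46 TPM in female control replicate 2, below the 4.89 to 4.98 TPM of the other female controls. Gm6300 was 0.173 TPM in female Kl/Kl replicate 1, above at most 0.00841 TPM in the others of that group. 5930430L01Rik was 4.28 TPM in male Kl/Kl replicate 3, below the other male Kl/Kl kidneys at 4.65 to 4.73 TPM. Among the parents, Hmgb1 was 0.636 TPM in female Kl/Kl replicate 4, and Cop1 was 0.137 TPM in female Kl/Kl replicate 3, the library nearly without kidney markers, each the lowest of its group.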

How the results depend on the processing

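For the 8 genes, 196 differences under the alternatives moved by less than the spread between libraries and 13 moved by more. The sign turned in 1 case, Gm16199 in males, whose groups overlap (-0.38, and 0.05 without male control replicate 3). Most of the 13 larger moves came with a pseudocount of 0.1 (Gm45315 in males became -6.44), the others with median-of-ratios scaling. For parents and named neighbours, 291 values kept their direction and side of the threshold, 7 gained the threshold, 11 lost it and 6 turned direction, none past it. These 6 were Gm15773 in males (-0.053, with -0.209 to 0.022 with 1 library left out and 0.014 with the replicate block), Cth in males (-0.085, with -0.313 to 0.089 with 1 library left out), Zfp329 in females (-0.026, with 0.127 with median-of-ratios scaling and -0.103 to 0.097 with 1 library left out) and 1810059H22Rik in females (-0.036, and 0.234 without female Kl/Kl replicate 3). The left-out libraries that turned them were male Kl/Kl replicate 4, male control replicate 2 and female Kl/Kl replicate 3. The losses included Ly6a in males, with limma adjusted p up to 0.0771, and the gains were Rpl32 and Slc7a12 in males, with limma adjusted p down to 0.0366 and 0.0138. Male calls numbered 500. They were 1153 with median-of-ratios scaling and 1249 with the prefix as a covariate, and 185 (without male control replicate 2) to 909 (without male control replicate 3) with 1 library left out. Female calls numbered 3, with 8 with no filter, 7 in the model of 4 groups and 2 to 9 with 1 library left out (9 without female Kl/Kl replicate 3). The male neighbour count of 1 was 2 with a pseudocount of 0.1 and with the prefix, 0 with no filter (8 at an unadjusted p under 0.05), and 0 to 1 with 1 library left out. Whether equal replicate numbers pair libraries was not settled. Deviations of same-numbered libraries from their group means correlated between -0.177 and 0.29, and those of other pairs between -0.278 and 0.239. Such deviations in groups of so few libraries cannot decide it. With the replicate number as a block, male calls were 234 and female calls 0 by limma (3 without the block, and 261 at an unadjusted p under 0.05 with it). Depth limits Gm45315 in Kl/Kl kidneys and Gm16199 in female controls, which rest on at most 8.27 and 7.42 estimated reads. The cause of these changes between alternatives was not tested.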

Other observations

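Outside the 8 genes, the noncoding gene with the greatest change past the threshold in males was Gm48931, a processed pseudogene on chromosome 14, with a log2(TPM + 1) change of -4.38 ± 0.539 (SE) and a limma adjusted p of 0.00088. Ncoa4-ps, named for the ferritin receptor gene Ncoa4, rose by 2.31 on that scale with a limma adjusted p of 0.0447, and Gm7993 fell by 2.28 with a limma adjusted p of 0.011. Among lncRNAs, Gm43190 fell by 2.07 and Gm31774 by 1.90, with limma adjusted p of 0.0104 and 7.56e-05.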
